A study of Mus musculus with 10 samples.

Results

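Tspo and 6 genes of proteins that bind it, feed it or sit beside it at the mitochondrial outer membrane were examined in microglia of mice given the CSF1R inhibitor GW2580. The genes were listed by symbol as Tspo, Dbi, Acbd3, Vdac1, Vdac2, Vdac3 and Star, and all 7 were found among the 46152 genes counted. All 7 passed the filter of more than 1 CPM, a count scaled to the size of its library, in at least 3 libraries, which left 28419 genes for testing.

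The cells came from the brains of adult C57BL/6J mice, 5 given vehicle and 5 given GW2580, with 2 male and 3 female mice in each group and 1 library from each mouse. Vehicle mice were gavaged for 8 days with Hydroxymethyl Propyl-cellulose at 0.5% and Tween 80 at 0.1%, and GW2580 mice received 80 mg/kg/d of the drug in that same mixture. Brains were perfused and digested, and microglia were enriched over Percoll and drawn out with CD11b beads, which bind every CD11b-positive cell and so also take monocytes, granulocytes and border macrophages. RNA was amplified with SMART-Seq v4 and sequenced. GW2580 blocks the kinase of CSF1R, the receptor for CSF1 and interleukin-34, and the design asked what this does to the transcriptome of microglia in healthy mice.

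TSPO, the translocator protein, spans the outer mitochondrial membrane, binds cholesterol and porphyrins, and is the target of the radioligands used to image glia, since its level rises in activated microglia and in infiltrating myeloid cells. DBI, also called acyl-CoA-binding protein, carries fatty acyl-CoA esters, and peptides cut from it bind TSPO and the GABA-A receptor. ACBD3 is a Golgi protein with an acyl-CoA-binding domain that brings a regulatory subunit of protein kinase A to TSPO. The voltage-dependent anion channels VDAC1, VDAC2 and VDAC3 form the main pore of the outer membrane for ATP, ADP and metabolites. STAR moves cholesterol into mitochondria in steroid-making cells of the adrenal and gonad.

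Each library held between 12550418 and 26079343 fragments assigned to genes. All 9 microglia markers were detected, with a summed level of 12090 to 27565 CPM with vehicle and 17038 to 56236 CPM with GW2580. RNA of other cells was present unevenly: summed markers of astrocytes, oligodendrocytes and neurons reached 21533 CPM in Vehicle 2 and 6490 CPM in Vehicle 5 against 414 to 590 CPM in the other vehicle libraries, and ependymal and choroid plexus markers reached 25766 CPM in Vehicle 5. A gene was called when edgeR's quasi-likelihood test gave an unadjusted p under 0.05 with the level at least 2-fold apart. Called lower with GW2580 were 2 of 8 astrocyte, 4 of 7 oligodendrocyte, 2 of 7 neuron and 4 of 5 ependymal and choroid plexus markers tested, the last with a median log2 fold change of -2.48. Of 4 lymphocyte markers 3 were called lower (median -2.16), among them Nkg7 of cytotoxic cells (-1.96, SE 0.685), and their sum ran from 22.9 to 359.0 CPM with vehicle, highest in Vehicle 5, and from 7.61 to 66.9 CPM with GW2580. Called higher were 1 of 9 microglia markers, Cx3cr1 (1.14, SE 0.464), and 1 of 5 border macrophage markers, Mrc1 (1.10, SE 0.424). The part of these cells in the members' levels was tested no further than by fits with marker levels as covariates, given beside a gene where they moved its value by over 1.5 times or changed its call. Where leaving out Vehicle 2 or Vehicle 5 ended or made a call, turned a direction or moved a ratio past 1.5 times its value, the value without it is therefore given too. In RNA from a cell population, fewer cells of a type and less RNA per cell cannot be told apart.

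Of the 7 genes, Tspo and Dbi were called lower with GW2580 and none was called higher. Among all genes tested, 6.70% were called lower and 4.01% higher, and 2 of 7 is read against that share. Neither passed the Benjamini-Hochberg adjustment in that test, where 4186 genes (14.7%) lay under 0.05 before the adjustment and 0 after it. After the adjustment DESeq2 gave 177 genes, edgeR's likelihood ratio test 53, its exact test 28 and limma 0, and in none of these was Tspo or Dbi under 0.05. Of the edgeR fits on fewer libraries, only the fit without Vehicle 5 and GW2580 5 gave genes under 0.05 after the adjustment, 5246 of them, with Tspo at an adjusted p of 0.0232 and Dbi at 0.00834. In no member did the ranges of the groups separate fully, which 3.03% of all genes did.

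**Figure D1:**
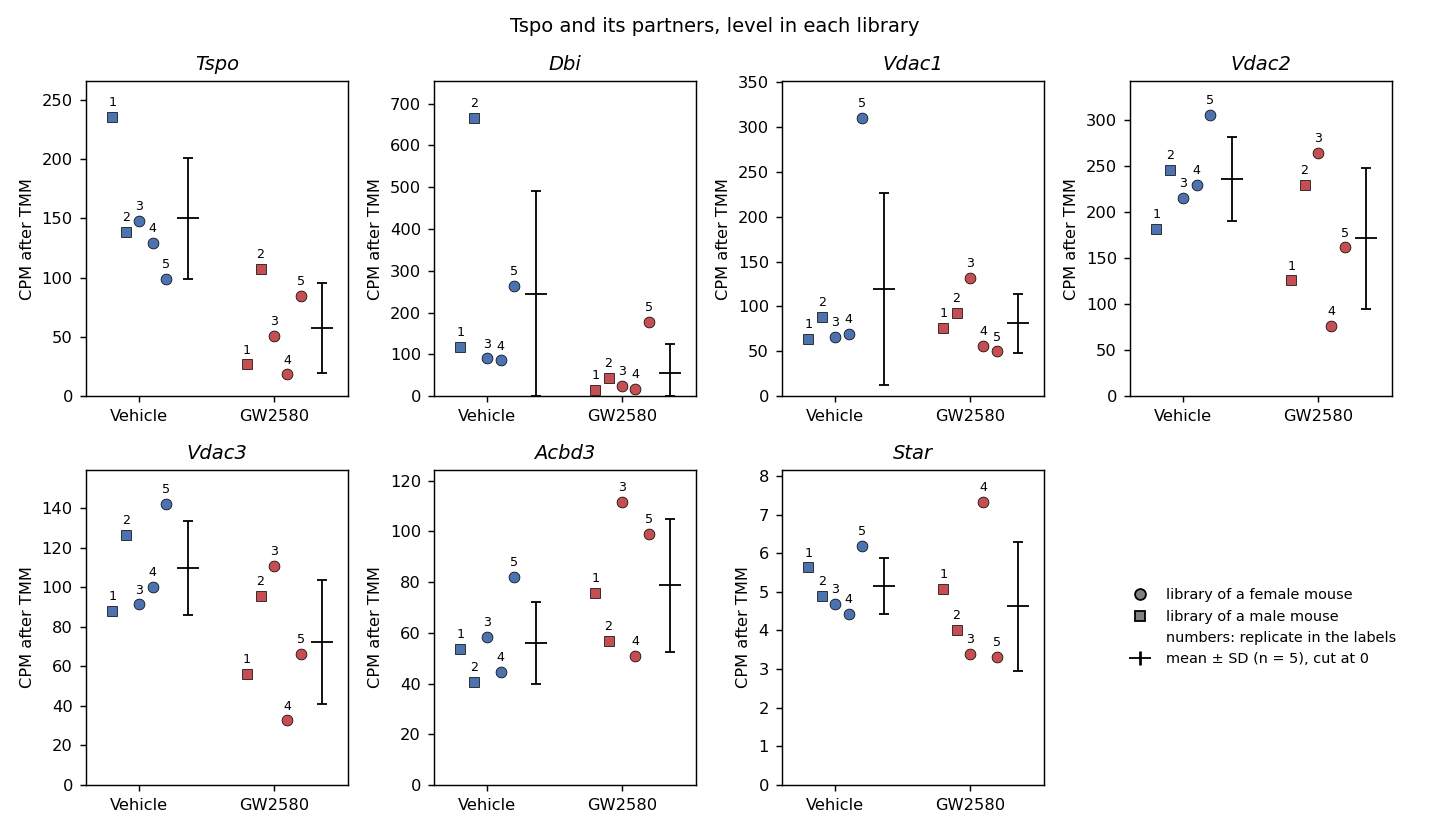
Level of each gene in each library, as CPM after TMM scaling (vertical axes, from 0), for 5 vehicle and 5 GW2580 mice, with the replicate number of the labels beside each point and mean ± SD at the right of each group. Vehicle 1 stands highest for Tspo, Vehicle 2 and Vehicle 5 for Dbi, and Vehicle 5 for Vdac1.

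Tspo (NCBI gene 12257, GRCm38 chr15:83563573-83574203, plus strand, 4 exon blocks) had 235.3, 138.8, 148.2, 129.0 and 99.3 CPM in Vehicle 1 to 5. In GW2580 1 to 5 it had 26.8, 107.1, 50.6, 18.4 and 84.6 CPM. The groups overlapped only through GW2580 2, which lay above Vehicle 5. The highest library was 2.37 times the lowest with vehicle and 5.82 times with GW2580, a difference in spread that was not tested. These levels are scaled by TMM factors, which ran from 0.856 to 0.975 with vehicle and from 0.691 to 1.61 with GW2580. The factor was largest in GW2580 4, where Tspo was lowest, so the scaling enters this spread. The log2 fold change was -1.38 (SE 0.468, edgeR p = 0.0104, adjusted p = 0.280), and the two-sided exact permutation test gave p = 0.0159, where 0.00794 is the smallest value possible.

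The call on Tspo did not depend on any single library, since the log2 fold change lay between -1.74 without GW2580 2 and -1.16 without GW2580 4, and every one of these 10 fits called it. Without Vehicle 2 and Vehicle 5 together it was -1.57 with an unadjusted p = 0.00759. It was not called in the 3 female mice of each group alone (-1.29, unadjusted p = 0.0756).

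Monocyte and granulocyte markers moved with Tspo in part of the libraries. Their sum over 6 of 6 markers ranged from 226 to 12859 CPM with vehicle and from 170 to 3616 CPM with GW2580, and none of the 6 was at 0 in any group. Vehicle 1, which held 12859 CPM, had the highest Tspo, and Vehicle 5, which held 226 CPM, had the lowest of the vehicle libraries. Among GW2580 libraries, the 2 with the most of these markers, GW2580 5 with 3616 and GW2580 2 with 2874 CPM, were also the 2 with the most Tspo. GW2580 3, with the least at 170 CPM, nevertheless had more Tspo (50.6 CPM) than GW2580 1 (26.8 CPM), which held 802 CPM. Most of the sum was S100a8 and S100a9, neutrophil calcium-binding proteins that reached 4273 and 7991 CPM, with log2 fold changes of -1.11 and -1.31 that were not called. Of the 6 markers, 5 had a negative log2 fold change (median -1.21) and 1 was called lower, Plac8 (-1.60, SE 0.625). Ly6c2 of classical monocytes had -1.50 (SE 0.738), the integrin Itgal -0.04 (SE 0.460) and the monocyte receptor Ccr2 0.37 (SE 0.342), none of them called. With the mean level of these markers as a covariate, chosen after seeing the data, the log2 fold change of Tspo was -1.09 (SE 0.398, edgeR unadjusted p = 0.0158) and remained called. The microglia markers as a covariate, also chosen after seeing the data, gave -1.52 (unadjusted p = 0.0102).

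**Figure D2:**
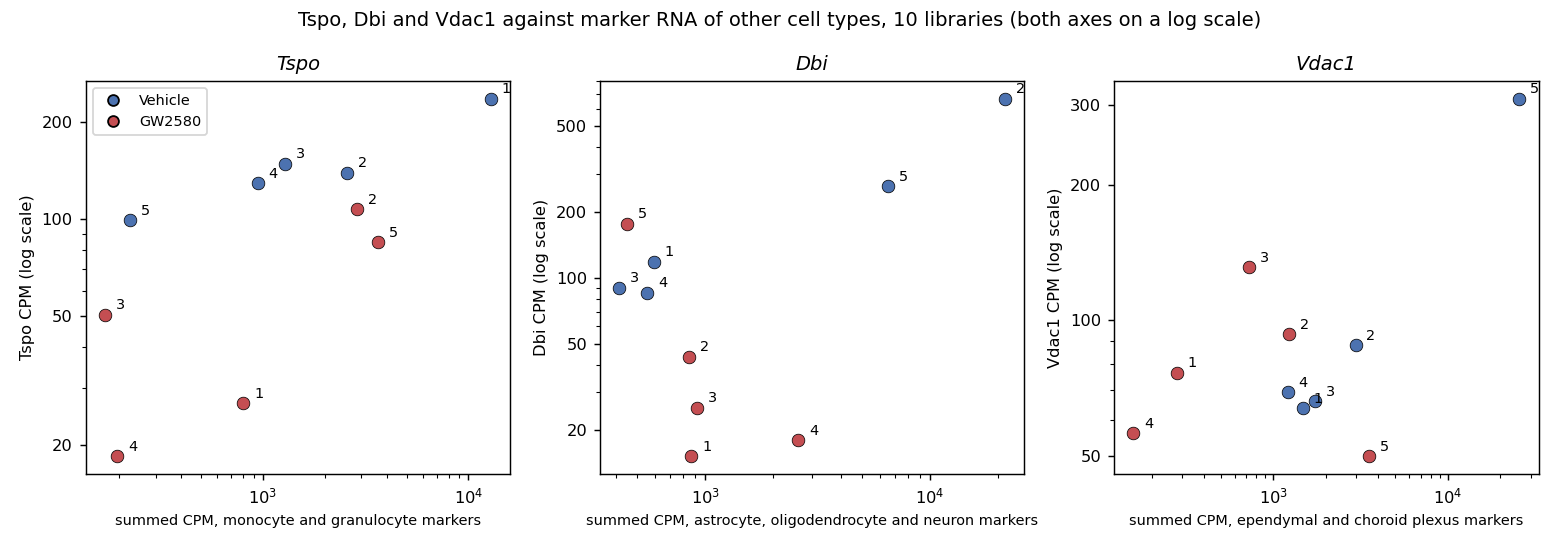
Tspo against summed monocyte and granulocyte markers, Dbi against summed astrocyte, oligodendrocyte and neuron markers, and Vdac1 against summed ependymal and choroid plexus markers, each point a library with its replicate number and both axes as CPM on a log scale. The highest Tspo (Vehicle 1), the highest Dbi (Vehicle 2) and the highest Vdac1 (Vehicle 5) each lie in the library with the most marker RNA of that panel, at 12859, 21533 and 25766 CPM.

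Dbi (NCBI gene 13167, GRCm38 chr1:120113280-120121096, minus strand, 5 exon blocks), the acyl-CoA-binding protein whose peptides bind TSPO, had the largest fitted difference of the 7 genes and the widest spread. It had 118.8, 664.9, 90.4, 85.4 and 264.6 CPM in Vehicle 1 to 5, and 15.2, 43.6, 25.4, 17.9 and 178.0 CPM in GW2580 1 to 5. Vehicle 2 and GW2580 5 stood far above the rest of their groups, and the other 4 GW2580 libraries lay below every vehicle library. Its log2 fold change was -2.13 (SE 0.770, edgeR p = 0.0152, adjusted p = 0.280), a 4.37-fold lower level, with an exact permutation p of 0.0397.

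Both extreme libraries bore on this value. Without Vehicle 2 the log2 fold change was -1.32 and no longer called (unadjusted p = 0.0814), without GW2580 5 it was -3.33 (unadjusted p = 0.000327), and without Vehicle 2 and Vehicle 5 it was -0.81 (unadjusted p = 0.235). Vehicle 2 and Vehicle 5 were the libraries richest in astrocyte, oligodendrocyte and neuron markers, of which 22 of 23 passed the filter and Mog, a myelin gene, did not. With the mean of these markers as a covariate Dbi had a log2 fold change of -1.22 (SE 0.761, unadjusted p = 0.129). With ependymal and choroid plexus markers, a covariate chosen after seeing the data, it was -1.45 (unadjusted p = 0.113), and these markers were highest with vehicle in Vehicle 5 (25766 CPM) and with GW2580 in GW2580 5 (3528 CPM). In Vehicle 1, 3 and 4, where glial and neuronal markers summed to 414 to 590 CPM, Dbi lay between 85.4 and 118.8 CPM. In GW2580 1 to 4 those markers summed to 847 to 2594 CPM and Dbi to no more than 43.6 CPM. GW2580 5 departed from this, since its glial and neuronal markers summed to 449 CPM and its Dbi, at 178.0 CPM, lay above Vehicle 1, 3 and 4.

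The difference in Dbi was not shown to depend on sex. The edgeR interaction of sex with treatment was 2.74 (SE 1.46, unadjusted p = 0.0837), and no member had an interaction p under 0.05, against 2.52% of all genes. In male mice Dbi had 118.8 and 664.9 CPM with vehicle and 15.2 and 43.6 CPM with GW2580. In female mice the highest GW2580 library, at 178.0 CPM, lay above 2 of the 3 vehicle libraries. Fitted alone, the female mice gave a log2 fold change of -0.99 that was not called (SE 0.906, unadjusted p = 0.296) and the male mice -3.81 (SE 0.876, unadjusted p = 0.00231).

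Dbi shares its first bases with a gene on the other strand, 3110009E18Rik, over 15 bases or 2.01% of its exon sequence. Counting paid no regard to strand, but that neighbour had at most 460 fragments in any library over 7041 bases, so few fragments of Dbi can come from it.

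Acbd3 (NCBI gene 170760, GRCm38 chr1:180726043-180754204, plus strand, 8 exon blocks), the Golgi partner that joins TSPO to protein kinase A, was the only member with a higher mean after GW2580. It had 53.6, 40.7, 58.5, 44.7 and 81.9 CPM in Vehicle 1 to 5 and 75.8, 56.9, 111.5, 50.8 and 99.1 CPM in GW2580 1 to 5. GW2580 3 and GW2580 5 lay above every vehicle library and the other 3 within the vehicle range. The log2 fold change of 0.50 (SE 0.329, edgeR p = 0.153, adjusted p = 0.482) was not called, and the exact permutation p was 0.135. With ependymal and choroid plexus markers as a covariate it was 0.82 (SE 0.368, unadjusted p = 0.0417), which was under a fold change of 2 and so not called.

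The ratio of Acbd3 to Dbi, both acyl-CoA-binding, was 1 of 6 ratios within a library that were chosen with earlier results of these data known, so its p is no evidence independent of the opposite signs of the 2 genes. The log2 ratio of Acbd3 to Dbi, each as CPM, was -1.15, -4.03, -0.63, -0.93 and -1.69 in Vehicle 1 to 5 and 2.31, 0.38, 2.13, 1.495 and -0.84 in GW2580 1 to 5. All GW2580 libraries but GW2580 5 lay above every vehicle library. The mean was higher by 2.78 on the log2 scale (exact permutation p = 0.0159, adjusted over the 6 ratios tested p = 0.0952), a difference that did not pass the adjustment. Without Vehicle 2 and Vehicle 5 it was 1.997 (exact permutation p = 0.0714). The ratio of Dbi to Tspo differed by -0.69 (exact permutation p = 0.365, adjusted p = 0.438), between standard deviations of 1.46 with vehicle and 0.951 with GW2580. This difference was -0.19 without Vehicle 2, -0.41 without Vehicle 5 and -1.06 without GW2580 5. It turned to 0.35 without Vehicle 2 and Vehicle 5 together (exact permutation p = 0.696).

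The 3 VDAC genes gave no call. Vdac2 (NCBI gene 22334, GRCm38 chr14:21831561-21845879, plus strand), the isoform that also holds BAK at the membrane, had 181.7, 245.3, 214.8, 229.4 and 305.3 CPM in Vehicle 1 to 5 and 125.7, 228.9, 264.5, 75.9 and 161.5 CPM in GW2580 1 to 5. GW2580 1, 4 and 5 lay below every vehicle library and GW2580 2 and 3 within the vehicle range. The log2 fold change was -0.46 (SE 0.368, edgeR p = 0.234, adjusted p = 0.565), with an exact permutation p of 0.143. Leaving out 1 library gave -0.67 (without GW2580 3) to -0.27 (without GW2580 4). Vdac2 shares 19 bases, or 1.14% of its exon sequence, with Comtd1 on the other strand, which had at most 293 fragments in any library.

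Vdac3 (NCBI gene 22335, GRCm38 chr8:22577075-22593813, minus strand) had 88.1, 126.7, 91.4, 100.1 and 142.3 CPM in Vehicle 1 to 5 and 56.1, 95.6, 110.9, 32.7 and 66.1 CPM in GW2580 1 to 5. The same 3 GW2580 libraries lay below the vehicle range. Its processed copy Vdac3-ps1 had at most 18 fragments. The log2 fold change was -0.60 (SE 0.356, edgeR p = 0.113, adjusted p = 0.434; exact permutation p = 0.0714).

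Vdac2 and Vdac3 moved with the share of uniquely aligned fragments that fell on no annotated exon, such as introns and the space between genes. That share was 68.0, 56.1, 47.1, 70.8 and 64.7% in GW2580 1 to 5 and 47.7 to 59.8% with vehicle. The GW2580 libraries ranked from the lowest share to the highest were also ranked from the highest Vdac2 and Vdac3 to the lowest. The 2 vehicle libraries with the lowest share, Vehicle 5 and Vehicle 2, had the most of both. The TMM factors rose in the same order, at 0.691, 0.964, 1.10, 1.23 and 1.61 in GW2580 3, 2, 5, 1 and 4. With vehicle they were lowest in Vehicle 5 (0.856) and Vehicle 2 (0.880). A larger factor gives a lower CPM, so the ranking is not separate from the scaling, and it was not tested without it. With this share as a covariate, the log2 fold change was -0.18 for Vdac2 (SE 0.252, unadjusted p = 0.495) and -0.30 for Vdac3 (SE 0.239, unadjusted p = 0.229), and with ependymal and choroid plexus markers as a covariate it was -0.14 for Vdac2 (SE 0.414) and -0.28 for Vdac3 (SE 0.390). With the share on no annotated exon Tspo stayed called at -1.29 (unadjusted p = 0.0214) and Dbi was not called at -1.67 (unadjusted p = 0.186).

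Vdac1 (NCBI gene 22333, GRCm38 chr11:52360851-52389397, plus strand), the best studied pore and a docking site for hexokinase, had a direction set by 1 library. It had 63.9, 88.2, 66.2, 69.2 and 310.2 CPM in Vehicle 1 to 5 and 76.5, 93.1, 131.4, 56.1 and 49.97 CPM in GW2580 1 to 5. The log2 fold change of -0.55 (SE 0.486, edgeR p = 0.273, adjusted p = 0.598; exact permutation p = 0.619) turned to 0.18 without Vehicle 5 (unadjusted p = 0.597). Vehicle 5 also held 25766 CPM of ependymal and choroid plexus markers, and with these as a covariate, chosen after seeing the data, the value was 0.59 (unadjusted p = 0.157). It was -0.04 with glial and neuronal markers and -0.35 with microglia markers as the covariate. The part of such cells in the level of Vdac1 in Vehicle 5 was not tested further.

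The makeup of the channel was compared as the share of each gene in the summed CPM per kilobase of the 3 genes. Vdac2 made up 54.1 ± 5.70% in vehicle and 54.2 ± 3.80% in GW2580 libraries, Vdac3 29.3 ± 3.19% and 26.8 ± 1.24%, and Vdac1 16.6 ± 8.27% and 18.9 ± 4.96% (SD, n = 5 each). Vdac2 was the most abundant of the 3 in all 10 libraries. In Vehicle 5 Vdac1 took 31.4% and overtook Vdac3, where it held 12.2 to 13.5% in the other vehicle libraries, and in GW2580 4 the 2 were nearly equal at 25.5 and 24.9%. The log2 ratio of Vdac3 to Vdac2 was the steadiest of the 6 ratios, at -1.10 ± 0.113 in vehicle and -1.23 ± 0.0479 in GW2580 libraries (SD, n = 5 each). The difference was -0.13 (exact permutation p = 0.0556, adjusted p = 0.167). Without Vehicle 3, Vehicle 4 or GW2580 1 the unadjusted exact permutation p was 0.0238, 0.0397 or 0.0476. Without Vehicle 2 and Vehicle 5 together the difference was -0.078 (exact permutation p = 0.179). The log2 ratio of Vdac3 to Vdac1 differed by -0.38 (p = 0.333 by the exact permutation test, adjusted p = 0.438) and by -0.70 without Vehicle 5 (p = 0.0159 by the same test). The ratio of Vdac2 to Vdac1 differed by -0.25 (exact permutation p = 0.548) and by -0.57 without Vehicle 5 (exact permutation p = 0.0714), and leaving out any other library gave -0.41 to -0.098. That of Vdac1 to Tspo differed by 1.29 (exact permutation p = 0.119, adjusted p = 0.238), which became 1.85 without Vehicle 5 (p = 0.0397).

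**Figure D3:**
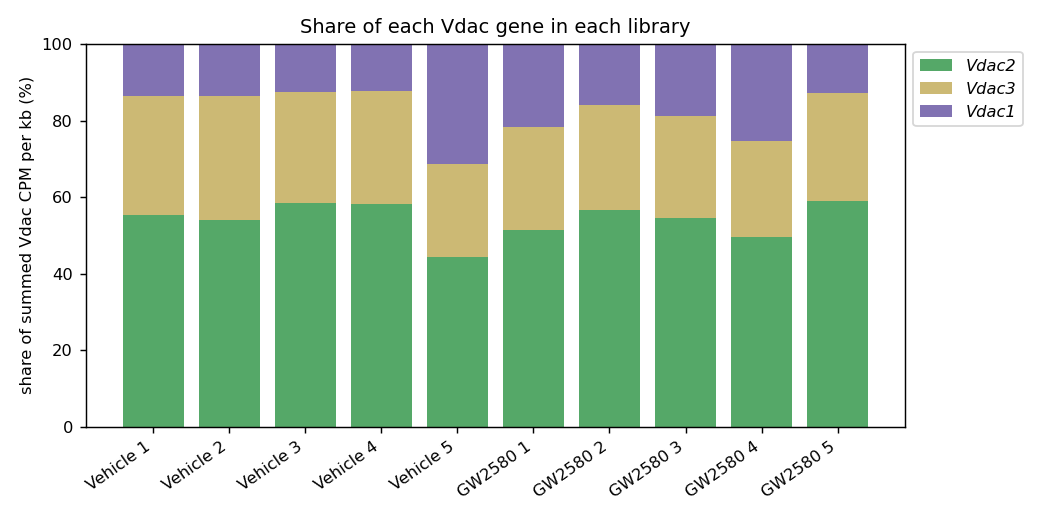
Share of Vdac2, Vdac3 and Vdac1 in their summed CPM per kilobase in each of the 10 libraries (bars, in percent, stacked to 100). Vdac2 is the largest share throughout, and Vdac1 is widest in Vehicle 5 at 31.4%.

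Star (NCBI gene 20845, GRCm38 chr8:25808474-25815982, plus strand), the cholesterol carrier of steroid-making cells, had the lowest level of the 7 genes. It had 5.63, 4.90, 4.68, 4.42 and 6.18 CPM in Vehicle 1 to 5, from 56 to 110 fragments, and 5.08, 4.02, 3.39, 7.34 and 3.32 CPM in GW2580 1 to 5, from 49 to 155 fragments. GW2580 2, 3 and 5 lay below every vehicle library and GW2580 4 above them all. The log2 fold change was -0.15 (SE 0.305, edgeR p = 0.620, adjusted p = 0.833) and was not called, with an exact permutation p of 0.373. It was -0.081 and -0.025 with glial and neuronal or microglia markers as a covariate. With the share on no annotated exon as a covariate it was -0.34, and without GW2580 4 it was -0.38.

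**Figure D4:**
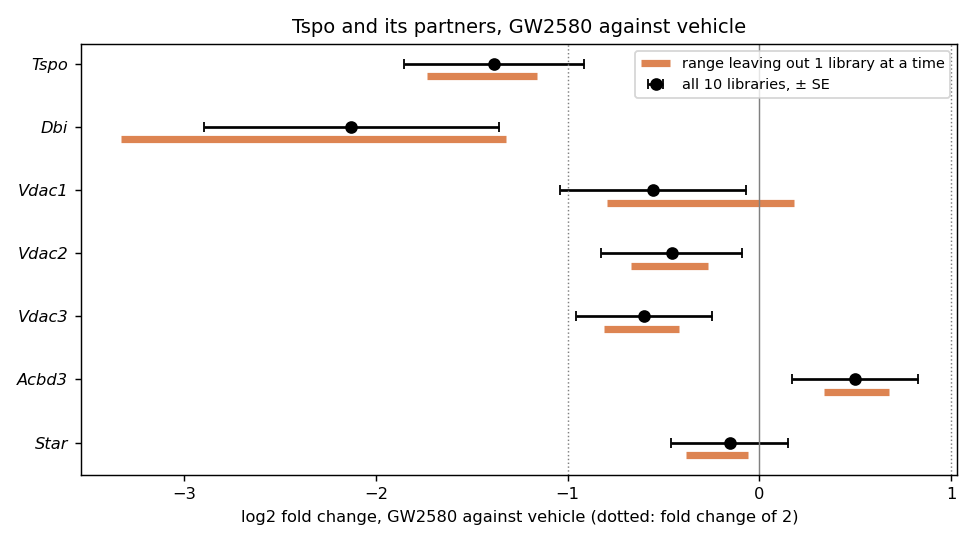
Log2 fold change of each gene, GW2580 against vehicle (horizontal axis), with all 10 libraries (point, ± SE) and as the range over fits that each leave out 1 library (bar). Tspo lies between -1.74 and -1.16 in all 10 such fits, Dbi between -3.33 and -1.32, and the range of Vdac1 crosses 0.

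Levels of the 7 genes were ranked against each other per kilobase of exon. With vehicle, Dbi had 328.6 ± 330.2 CPM per kb, Tspo 175.4 ± 59.6, Vdac2 141.6 ± 27.5, Vdac3 77.1 ± 16.6, Vdac1 49.9 ± 44.7, Acbd3 16.1 ± 4.66 and Star 1.28 ± 0.179 (SD, n = 5). Among neighbours in this order the ranges of Dbi and Tspo, Tspo and Vdac2, and Vdac3 and Vdac1 overlapped, while Vdac2 and Vdac3, Vdac1 and Acbd3, and Acbd3 and Star did not. Dbi exceeded Tspo in only 2 of 5 vehicle libraries, Vehicle 2 and Vehicle 5, and its first place came from them. With GW2580, Vdac2 stood first at 103.1 ± 45.9 CPM per kb, above Dbi at 75.2 ± 92.7 and Tspo at 67.2 ± 44.2, then Vdac3 at 50.8 ± 21.96, Vdac1 at 34.0 ± 13.7, Acbd3 at 22.7 ± 7.56 and Star at 1.14 ± 0.413 (SD, n = 5). The place of Dbi with GW2580 came from GW2580 5, at 238.9 CPM per kb, since the other 4 libraries had 20.4 to 58.5, and Dbi exceeded Tspo in 2 of 5. Of these neighbours, Acbd3 and Star were the only pair whose ranges did not overlap. Tspo stood above Vdac2 in 4 of 5 vehicle libraries, and with GW2580 the mean of Vdac2 lay above that of Tspo.

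The genes whose level followed Tspo most closely were found by Pearson's r of log2 CPM over 10 libraries, among 7579 other genes with a mean of at least 20 CPM. They were Aprt (r = 0.980), H3f3a (0.977), Prdx5 (0.969), Fxyd5 (0.967) and Tmsb10 (0.965). The points share the 2 treatment groups and the library, including its depth and marker content, and the values are descriptive. Once group means were subtracted, Aprt (0.962), H3f3a (0.958), Rpl7a (0.939), Fxyd5 (0.935) and Prdx5 (0.930) ranked highest, so the likeness was present within groups.

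All 6 were short, the longest with 1410 bases of exon, and had a lower mean CPM after GW2580 than after vehicle. H3f3a (histone H3.3), Tmsb10 (a thymosin that binds actin), Fxyd5 (a subunit of the sodium pump) and Rpl7a (a ribosomal protein) are genes of many cell types. Fragments that align to more than 1 place were left out of the counts, and genes with near-identical processed copies in the genome, such as H3f3a and Rpl7a, have uncertain levels for that reason. Prdx5, a mitochondrial and peroxisomal peroxiredoxin, had means of 422.2 and 150.6 CPM, a log2 fold change of -1.49 (SE 0.481). Aprt, which salvages adenine, had 80.1 and 35.9 CPM (-1.16, SE 0.432). Over all genes tested the median log2 fold change was 0.08 below 1 kb of exon, -0.16 from 1 to 2 kb, -0.06 from 2 to 4 kb and 0.03 above 4 kb. These medians take in genes of every level above the filter. Whether length plays a part among genes with levels like that of Tspo was not tested.

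The partners themselves followed Tspo less closely. Dbi had r = 0.724 with it, Vdac3 0.720 and Vdac2 0.691, which placed them at the 83.7, 83.5 and 82.0 percentile of the genes compared. Vdac1 had r = 0.0675 and Acbd3 -0.298. After subtraction of group means these were 0.437 for Dbi, 0.523 for Vdac3, 0.548 for Vdac2, -0.147 for Vdac1 and 0.140 for Acbd3.

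The rest of the pathway was taken from 6 lists, on acyl-CoA-binding, cholesterol import and steroid synthesis, partners of VDAC, other outer membrane proteins, import across the inner membrane and heme synthesis. Outside the 7 members, 14 of 102 genes tested in these lists (13.7%) were called lower and 2 (1.96%) higher, beside 6.70% and 4.01% of all genes. Vehicle 5 held the highest level of 10 of these 16 genes, and 9 of the 16 calls were lost without it. Only 4 calls, on Fis1, Cisd1, Timm17a and Cyp17a1, were kept whichever library was left out, and that on Timm17a fell short of a fold change of 2 without Vehicle 2 and Vehicle 5 together (-0.92, unadjusted p = 0.0219), where the other 3 were kept.

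**Figure D5:**
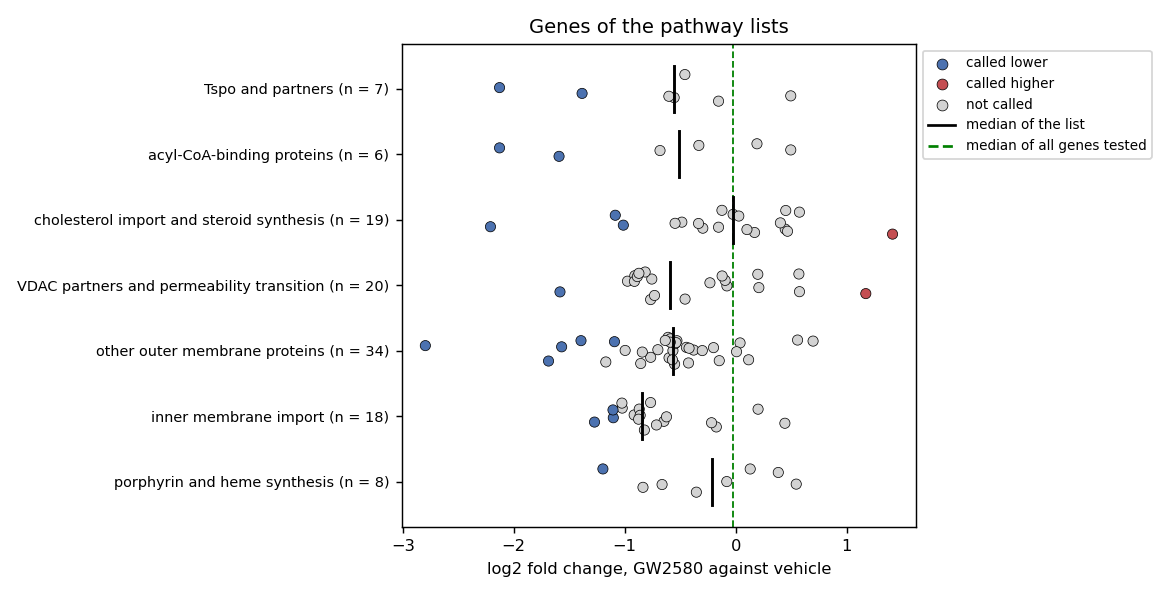
Log2 fold change, GW2580 against vehicle, of each tested gene in Tspo with its partners and in 6 pathway lists (points; blue called lower, red called higher, grey not called), with the median of each list (bar) and of all genes tested (dashed line, -0.03). The medians of the outer membrane, VDAC partner and inner membrane import lists lie at -0.57, -0.59 and -0.84, and most points in them are grey.

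Among 34 other outer membrane proteins tested, 5 were called lower and 0 higher, with a median log2 fold change of -0.57 beside -0.03 over all genes. Cisd1 (mitoNEET), an iron-sulfur protein of the outer membrane, had 89.3 ± 32.2 CPM in vehicle and 27.7 ± 14.5 in GW2580 libraries (SD, n = 5 each). Every GW2580 library lay below every vehicle library, as in 0.985% of all genes, with a log2 fold change of -1.69 (SE 0.407, edgeR adjusted p = 0.280). Fis1, an adaptor for mitochondrial fission, had 190.1 ± 94.9 and 64.1 ± 44.2 CPM (-1.57, SE 0.508), with 4 of 5 GW2580 libraries below every vehicle library.

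The other 3 calls in that list were lost without Vehicle 5. Maob, a monoamine oxidase rich in astrocytes, had 242.3 CPM in Vehicle 5 and no more than 20.9 CPM in any other library, and its log2 fold change went from -2.80 to -0.20 without it. Maoa went from -1.09 to -0.67 and also lost its call without Vehicle 2 (-0.995). Fundc2, a relative of the mitophagy receptor FUNDC1, went from -1.39 to -0.96 (unadjusted p = 0.0120), short of a fold change of 2 only, and 4 of 5 GW2580 libraries lay below every vehicle library (exact permutation p = 0.0159). The genes of the list with the most CPM beside Fis1, irrespective of length, Mtch1 (-0.84, SE 0.593) and Bnip3l (-0.57, SE 0.340), were not called.

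Import across the inner membrane had the lowest median, -0.84 over 18 genes, with 3 called lower and 0 higher. Timm17a, a subunit of the TIM23 channel, had 89.2 ± 27.5 CPM in vehicle and 36.9 ± 13.1 in GW2580 libraries (-1.27, SE 0.351; SD, n = 5 each), with no overlap between groups. Its highest levels were in Vehicle 5 and Vehicle 2, at 119.3 and 117.9 CPM, and without both its log2 fold change was -0.92. Grpel1, the nucleotide exchange factor of the import motor, had a log2 fold change of -1.11 (SE 0.374), which fell short of a fold change of 2 at -0.99 without Vehicle 2, -0.96 without GW2580 1 and -0.91 without GW2580 4. Timm17b had -1.10 (SE 0.422), and -0.92 and -0.90 without GW2580 1 and GW2580 4. Timm13, Timm50 and Timm23, those with the most CPM, had log2 fold changes of -1.02, -0.22 and -0.71 and were not called.

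The partners of VDAC held 1 gene called lower and 1 higher of 20, with a median of -0.59. Slc25a4, the adenine nucleotide carrier of muscle, heart and brain, had a log2 fold change of -1.58 (SE 0.570) and a level of 826.2 CPM in Vehicle 5, without which it was -0.95 (unadjusted p = 0.0606). Slc25a5, the carrier form of most other tissues, had 1128.7 ± 144.9 CPM in vehicle and 663.4 ± 311.8 in GW2580 libraries (SD, n = 5 each), a log2 fold change of -0.77 (SE 0.412, edgeR adjusted p = 0.391) that was not called. Its groups did not overlap, since the lowest vehicle library had 1024.6 CPM and the highest GW2580 library 944.5, and its exact permutation p was 0.00794, the smallest possible. Hk3, a hexokinase of myeloid cells, was the gene called higher, with 61.9 ± 17.8 and 139.4 ± 73.0 CPM (1.17, SE 0.403; SD, n = 5 each). Its value was 0.86 without GW2580 3, below the threshold of 1, and Mcl1 was at 0.57 (SE 0.387).

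In cholesterol import and steroid synthesis 3 of 19 genes were called lower and 1 higher, and the median was -0.02 beside -0.03 over all genes. Tspoap1, a large scaffold named for binding TSPO, had 13.03 ± 7.502 CPM in vehicle and 6.14 ± 2.14 in GW2580 libraries (-1.09, SE 0.395; SD, n = 5 each), and -0.71 without Vehicle 5 and -0.94 without GW2580 1. Fdx1, the ferredoxin that passes electrons to CYP11A1, had 33.4 ± 7.26 and 16.6 ± 6.52 CPM (-1.01, SE 0.333; SD, n = 5 each), and every GW2580 library lay below every vehicle library. Its value sat at the threshold and was -0.93, -0.92, -0.93 and -0.84 without Vehicle 2, Vehicle 5, GW2580 1 and GW2580 4.

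Srd5a1, a steroid 5-alpha-reductase, had 48.7 CPM in Vehicle 5 and at most 6.72 CPM elsewhere, and went from -2.21 to -0.33 without Vehicle 5. Cyp17a1, a steroid hydroxylase, was called higher from very low levels, 1.30 ± 0.798 CPM in vehicle and 3.44 ± 0.671 in GW2580 libraries (1.41, SE 0.466; SD, n = 5 each), with at most 76 fragments in any library. Every GW2580 library lay above every vehicle library, as in 2.04% of all genes. Prkar1a, the protein kinase A subunit, Stard3 and Atad3a had 0.10, 0.57 and 0.45 and were not called. Tspo2, the second Tspo gene, which is erythroid, had 0 fragments in any library. At 3 counts in the smallest library this allows up to 0.239 CPM before TMM scaling.

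Of the 6 acyl-CoA-binding proteins tested, Acbd4 was called lower beside Dbi, and the median was -0.51. Acbd4, a peroxisomal member, had 95.9 CPM in Vehicle 5 and at most 19.5 CPM elsewhere. Its log2 fold change of -1.59 (SE 0.652) was -0.28 without Vehicle 5, and its p was 0.0567, 0.0591 and 0.0519 without GW2580 1, 4 and 5. Eci2 had -0.33 (SE 0.341). In heme synthesis Alad, the enzyme that makes porphobilinogen, was the 1 of 8 genes called lower (-1.20, SE 0.488), and it lost the call without Vehicle 5 (-0.53, unadjusted p = 0.139), GW2580 1 (unadjusted p = 0.0686) or GW2580 4 (unadjusted p = 0.0650). Alas1, Ppox and Fech had -0.08, 0.38 and -0.66 and were not called.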

How the data were processed

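Microglia RNA from 10 mice was analysed, 5 Vehicle and 5 GW2580, grouped by the sample titles. The authors aligned read pairs to GRCm38 with STAR and counted uniquely aligned fragments on RefSeq exons with featureCounts (1.6.3 per the file headers), without regard to strand; these raw counts and the assignment summaries were deposited. Symbols and coordinates came from a RefSeq GRCm38 table, matching 46029 of 46152 genes.

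Genes exceeding 1 CPM in 3 or more libraries entered the test. They were scaled by TMM and tested with edgeR 4.0.16 in R 4.3.3 (quasi-likelihood, treatment only, Benjamini-Hochberg over all genes). The SE is the log2 fold change over the square root of F. Single values had two-sided exact permutation tests on log2 CPM (prior count 2). Named were all members, called genes and the 3 of most CPM in each list, and the 5 genes most like Tspo by each measure. Members and lists were chosen with earlier results of these data known. The tests take mice as the units of replication. Alternatives included DESeq2 1.42.0, limma 3.58.1, other scalings, filters and covariates and leaving out libraries. Protein and promoter sequences of the members were not used here.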

Additional observations from a re-analysis of the deposited data

Results flagged for a closer look

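In 26 groups of 5 values, the 7 genes and 6 ratios in each treatment, the highest or lowest library was compared with its nearest neighbour as a share of the whole range of the group. A share above 0.71 marks a library that stands apart, and 4 groups had one. Chance gives this in about 5% of groups if the values follow a normal distribution. The genes were compared as CPM, for which that was not tested and a skewed spread can pass 0.71 more often. Dbi in GW2580 5, at 178.0 CPM, had a share of 0.826, and this library also held the most ependymal and choroid plexus marker RNA (3528 CPM) of the GW2580 libraries. Vdac1 in Vehicle 5, at 310.2 CPM, had a share of 0.901. The log2 ratios of Vdac2 to Vdac1 (-0.02, share 0.856) and of Vdac3 to Vdac1 (-1.12, share 0.959) were lowest in Vehicle 5, and both include the same Vdac1 value. Vehicle 5 held 25766 CPM of ependymal and choroid plexus markers and 12090 CPM of microglia markers, the lowest sum of the 10 libraries. The part of these cells in Dbi and Vdac1 was tested no further than by the fits with marker levels as covariates, and in the ratios it was not tested.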

How the results depend on the processing

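At an unadjusted p under 0.05, Tspo was called lower under every alternative fit with a test except the female mice alone (-1.29), with the p of the fit to all libraries, 0.0104, just above 0.01. Its log2 fold change ran from -1.76 without Vehicle 5 and GW2580 5 to -1.09 with monocyte and granulocyte markers as a covariate. Leaving out 1 library at a time gave -1.74 to -1.16. Dbi kept its direction throughout, from -3.81 in the male mice alone to -0.81 without Vehicle 2 and Vehicle 5. The direction of Vdac2, Vdac3 and Acbd3 was also the same under every alternative. Vdac1 ran from -0.79 to 0.18 over fits leaving out 1 library and turned positive with the share on no annotated exon (0.10) or ependymal markers (0.59) as a covariate, without Vehicle 2 and Vehicle 5 (0.29), without Vehicle 5 and GW2580 5 (0.22) and in male mice alone (0.088). Star was 0.22 with library size alone, a scaling under which the median over all genes was 0.23 rather than -0.03. The cause of the reversals in Star and Vdac1 was not tested.

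Of the 7 genes, 1 was called lower with glial and neuronal markers, ependymal markers or the share on no annotated exon as a covariate and without Vehicle 2 and Vehicle 5, and 0 in female mice alone, at an unadjusted p under 0.01 or at an adjusted p under 0.05. Leaving out 1 library gave 1 to 2. Over all genes, 1905 were called lower and 1141 higher. The count called lower was 875 with library size alone, 1230 with upper quartile factors, 3120 with no filter, 1024 with glial and neuronal markers, 813 with the share on no annotated exon and 1045 with microglia markers. It was 967 without Vehicle 2 and Vehicle 5, 4550 without Vehicle 5 and GW2580 5, 661 in female and 4773 in male mice, 522 at an unadjusted p under 0.01, and 1134 to 3879 leaving out 1 library, without GW2580 1 and GW2580 5. The count called higher was 2123 with library size alone, 1896 with ependymal markers, 2100 without Vehicle 5 and GW2580 5, 382 in female and 1810 in male mice, 1875 at a fold change over 1.5, 406 at an unadjusted p under 0.01, and 669 to 1777 leaving out 1 library, without GW2580 1 and Vehicle 5. At an adjusted p under 0.05 both counts were 0 with all libraries, while 5246 genes passed without Vehicle 5 and GW2580 5, Tspo (adjusted p = 0.0232) and Dbi (0.00834) among them.

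Without Vehicle 2 and Vehicle 5 the log2 ratio of Dbi to Tspo turned to 0.35, that of Acbd3 to Dbi was 2.00 and no longer under 0.05, and that of Vdac1 to Tspo was 2.02 and passed it. Leaving out 1 library gave -1.06 to -0.19 for Dbi to Tspo, 2.19 to 3.26 for Acbd3 to Dbi, -0.57 to -0.098 for Vdac2 to Vdac1, 0.97 to 1.85 for Vdac1 to Tspo, -0.70 to -0.23 for Vdac3 to Vdac1 and -0.16 to -0.092 for Vdac3 to Vdac2.

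The replicate numbers of the labels were not taken as pairs, since the deviations of same-numbered libraries from their group means had r of -0.05, 0.39, 0.09, -0.44 and -0.57. With the replicate block the log2 fold change was -1.61 for Tspo and -2.32 for Dbi, and 2 genes were called lower as before. For Acbd3 to Dbi the paired difference of 2.78 had p = 0.0625 in the exact sign-flip test, the smallest it can give. Depth limits the statement on Tspo2, whose 0 fragments allow up to 0.239 CPM before TMM scaling.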
